A study of Mus musculus with 28 samples.

Results

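The miR-34b/c and miR-449a family was followed in small RNA libraries of alveolar macrophages (AM) as 5 mature miRNAs, mmu-mir-34b-3p, mmu-mir-34b-5p, mmu-mir-34c-3p, mmu-mir-34c-5p and mmu-mir-449a-5p. They were chosen by name, as the rows so named in each of the 4 deposited tables, and are 5 of the 607 miRNAs listed in any table. All 5 were listed in all 4 tables. The AM were obtained by lavage from mice 12 weeks old, 4 h after a 3 h exposure to filtered air (FA) or ozone (O3). Co-ex mice carry the human surfactant protein A genes SP-A1 and SP-A2 (6A2/1A0) on a C57BL/6J background without mouse SP-A, and KO mice lack SP-A, so that mouse SP-A is missing from all 8 groups. Each co-ex group of 1 sex and 1 exposure held 4 libraries and each KO group held 3, the study's methods state that the females were synchronized for the estrous cycle, and a library is labelled as a separate sample of its group without naming the animal, so the p-values measure the spread between libraries.

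The miR-34 and miR-449 miRNAs form a seed family, a set of miRNAs that share the bases with which they pair to their targets. miR-34b and miR-34c are cut from neighbouring hairpins, and each hairpin can give a mature miRNA from its 5′ arm (5p) and from its 3′ arm (3p). In the airway, miR-34b/c and miR-449 are known for their high level in multiciliated epithelial cells, where they act in the making of motile cilia, and miR-34 genes are also known targets of the transcription factor p53.

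The mature sequences show which members can pair alike. They are those of RefSeq on GRCm38.p6, where 4 of the 5 members had an entry. Capitals mark the seed, bases 2 to 8 counted from the 5′ end.
mmu-mir-34b-3p: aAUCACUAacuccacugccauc
mmu-mir-34c-3p: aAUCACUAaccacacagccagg
mmu-mir-34b-5p: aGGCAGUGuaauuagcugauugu
mmu-mir-449a-5p: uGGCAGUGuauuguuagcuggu
The relatives mmu-mir-34a-5p and mmu-mir-449c-5p, shown because they carry the same seed as the 5p members, read as follows.
mmu-mir-34a-5p: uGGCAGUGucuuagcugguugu
mmu-mir-449c-5p: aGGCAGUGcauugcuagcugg
The 3p members shared one seed, held by 2 of the 1738 mature miRNAs in the reference, and the 5p members shown shared another, held by 4. The miR-34b-3p and miR-34c-3p sequences were alike in their first 10 bases and in 17 of 22 positions, and differed in the other 5, all in the 3′ part. The miR-34b-5p and miR-449a-5p sequences, set side by side without gaps, were alike in 10 of 22 positions, the seed among them.

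The genes lie at 2 places in the genome (GRCm38). Mir34c (chromosome 9, 51103034 to 51103110) and Mir34b (chromosome 9, 51103562 to 51103645) lie on the minus strand, 451 bases apart, and both fall within an intron of Btg4, which is on the plus strand. Mir449a (chromosome 13, 113037534 to 113037624, plus strand) lies in an intron of Cdc20b on the same strand, 35 bases after Mir449b (113037419 to 113037498), and Mir449c (113035983 to 113036091) lies 1327 bases before Mir449b, also in an intron of Cdc20b. Cdc20b is the host gene with which miR-449 is known to be made in multiciliated cells.

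The authors deposited normalized values, the reads of a miRNA divided by a size factor of its library, and every value was a whole multiple of the smallest, so that the reads were recovered. The libraries held 41542 to 2082034 miRNA reads with a median of 490152, and a count of 0 allows up to 3 reads, between 1.04 and 12.9 normalized units (counting error only, as PCR reads are not independent molecules). Beside the AM label, 6 miRNAs of myeloid cells were looked at, such as miR-223-3p and miR-142a-3p, all of them listed in each table. Together they took 4.25% to 22.3% of the miRNA reads of a library. They are not markers of AM alone and no limit was set, so this share is a description and no check of the label. Tables were normalized separately, so normalized values are compared here only within a table, and RPM, reads scaled to a total of 1000000 miRNA reads in each library, across tables. A mature miRNA is one short read long, so levels of members are set beside each other without scaling for length.

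Some libraries stood apart from the others of their group. In KO males after FA, replicate 3 had 30676 RPM of 11 epithelial miRNAs (the miR-200 family with miR-141, miR-429, miR-205, miR-375, miR-203, miR-182, miR-183 and miR-96), against 2478 and 3017 RPM in replicates 1 and 2. It also had 32807 RPM of 6 listed mesenchymal and vessel miRNAs (miR-143-3p and others), against 809.5 and 782 RPM, and 42505 RPM of the myeloid miRNAs, against 223060 and 166517 RPM. In co-ex males, FA replicate 4 and O3 replicate 2 had 29301 and 35159 RPM of the epithelial miRNAs, the highest of their groups. Counts of members called in the comparisons that hold these libraries are given with and without them.

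The order of the groups by the summed level of the 5 members ran from co-ex females to the KO air groups. The sum was 19056 ± 5052 RPM (SD, n = 4) in co-ex females after O3 and 16987 ± 6754 RPM (SD, n = 4) after FA, followed by 13372 ± 4934 RPM (SD, n = 3) in KO females after O3 and 8657 ± 2168 RPM (SD, n = 3) in KO males after O3. Co-ex males had 7187 ± 10338 RPM (SD, n = 4) after O3 and 3494 ± 4407 RPM (SD, n = 4) after FA, where the SD was larger than the mean. KO males after FA had 992 ± 1058 RPM (SD, n = 3), and KO females after FA had the lowest level, 669 ± 465 RPM (SD, n = 3). In this order, 0 of the 7 neighbouring pairs of groups differed by more than the larger of their SDs, and all 7 overlapped in range. The members thus took from 0.0669% of the miRNA reads in KO females after FA to 1.91% in co-ex females after O3, as means over libraries.

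Among the members, miR-34b-3p was the most abundant in each of the 8 groups by mean RPM, at 467 to 11982 RPM. By level it had rank 23 of 368 miRNAs listed in the table of co-ex females, rank 46 of 412 in co-ex males, rank 40 of 403 in KO females and rank 51 of 565 in KO males. miR-34c-5p came next in each of the 8 groups, with group means of 113 to 6017 RPM, and miR-34c-3p had 10.1 to 1332 RPM. miR-449a-5p had 2.23 to 540.4 RPM, and miR-34b-5p, the least abundant, had 0 to 80.1 RPM.

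**Figure D1:**
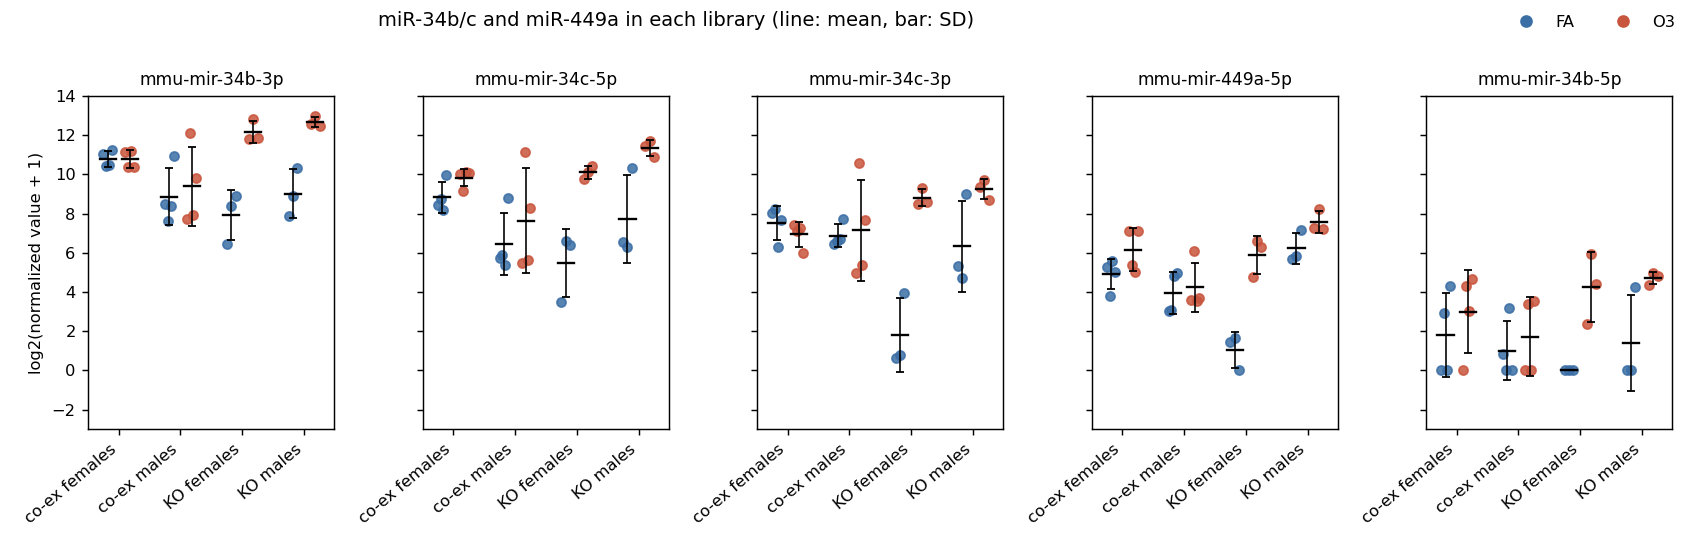
Normalized values of the 5 miRNAs in each library, as log2(value + 1), in the 4 tables (horizontal axis), with FA libraries in blue and O3 libraries in red, the mean as a line and the SD as a bar. In KO females every O3 library lies above every FA library for the 5 miRNAs. The same held there for others such as miR-375-3p and miR-126a-3p, and not for miR-203-3p and miR-142a-3p (not shown). The share of all miRNAs without overlap was not counted, so this is no support by itself. In co-ex females and co-ex males FA and O3 libraries overlap for each of the 5 miRNAs.

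The first question was whether the family changed after O3 in the absence of SP-A. In KO females, 4 of the 5 members rose after O3, while 13.2% of all tested miRNAs were called in that table (42 of 319, of which 32 were higher). The limma fit used log2(value + 1), a scale that makes the change of scarce miRNAs look smaller than it was, and p-values were adjusted by Benjamini and Hochberg and called under 0.1. A miRNA was tested where 3 or more libraries reached a value of 5. miR-34b-5p did not reach this minimum, and miR-34c-3p and miR-449a-5p reached it only through the O3 libraries, so a count over the tested members is no support by itself. The median log2 difference of all tested miRNAs was 0.06. The library codes of FA replicates 2 and 3 lay above those of the other KO female libraries. A difference between series of libraries can therefore not be told apart in full from one of exposure.

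miR-34b-3p, the main product of its hairpin, had normalized values of 88.0, 333 and 476 in the KO female FA libraries and of 3625, 7184 and 3724 in the O3 libraries. All 3 O3 libraries were above all FA libraries, by a ratio of means of 16.2. The log2 difference was 4.25 (SE 0.61, adjusted p = 0.00523 by limma).

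miR-34c-5p, the 5p product of the neighbouring hairpin, had 10.2, 96.7 and 82.4 normalized units after FA and 878, 1111 and 1379.6 after O3. The groups did not overlap, and the lowest FA library was replicate 1. The log2 difference was 4.62 (SE 0.80, adjusted p = 0.00816 by limma).

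miR-34c-3p, the other arm of that hairpin, was nearly absent after FA, at 0.564, 0.732 and 14.7 normalized units, from 1, 1 and 21 reads. After O3 it had 362, 633 and 389 normalized units. Its log2 difference of 7.004 (SE 1.06, adjusted p = 0.00523 by limma) was the largest of the members, and with 1 read in each of the FA replicates 1 and 2 its size is poorly fixed.

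miR-449a-5p, from the other chromosome, had 1.69, 2.20 and 0 normalized units after FA, from 3, 3 and 0 reads, all at or under the limit that a count of 0 allows. After O3 it had 26.3, 94.8 and 77.2 normalized units. The log2 difference was 4.85 (SE 1.11, adjusted p = 0.0245 by limma), and the call was lost without O3 replicate 2 (4.49, adjusted p = 0.123 by limma) or without O3 replicate 3 (4.64, adjusted p = 0.148 by limma). Over its 13 alternatives the adjusted p ran from 3.7e-05 to 0.148.

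miR-34b-5p, the scarce arm of the miR-34b hairpin, had 0 reads in all 3 KO female FA libraries and 5, 14 and 26 reads after O3, which are 4.24, 60.3 and 20.1 normalized units. The mean after O3 was 14.1 times the limit of 3 counts per FA library, which averages 2.00 normalized units. The counting error of the O3 reads is not in this ratio, and the O3 mean was led by replicate 2.

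In KO males, 1 of 5 members tested rose, against 0.909% of all tested miRNAs (4 of 440), with 32 miRNAs at an unadjusted p under 0.05. miR-34b-3p had 232, 472 and 1292 normalized units after FA and 6132, 8131 and 5674 after O3. Every O3 library lay above every FA library, and the log2 difference was 3.65 (SE 0.64, adjusted p = 0.0756 by limma). On the recovered reads edgeR gave a difference of 3.47 (adjusted p = 0.133), so this call did not hold with that tool, and over 13 alternatives its adjusted p ran from 3.5e-07 to 0.48.

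The other members of the KO male libraries were split by FA replicate 3. Its library code lay above those of the other KO male libraries. miR-34c-5p had 92.5, 77.3 and 1275 normalized units after FA and 2817, 3329 and 1914 after O3. miR-34c-3p had 38.6, 25.3 and 509 after FA and 647, 848 and 414 after O3, so that FA replicate 3 lay above O3 replicate 3. miR-449a-5p had 49.8, 57.2 and 142 after FA and 156, 302 and 147 after O3, with the groups just apart.

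None of these passed the threshold with all libraries. The log2 differences were 3.64 for miR-34c-5p (SE 1.05, adjusted p = 0.332 by limma), 2.92 for miR-34c-3p (SE 1.10, adjusted p = 0.586 by limma), 1.35 for miR-449a-5p (SE 0.60, adjusted p = 0.647 by limma) and 3.30 for miR-34b-5p (SE 1.28, adjusted p = 0.586 by limma). miR-34b-5p had 0, 0 and 17.9 normalized units after FA and 19.8, 30.1 and 27.0 after O3.

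Without FA replicate 3, all 5 members were called higher after O3 in KO males, and 86 of 479 tested miRNAs were called in all, 66 of them higher. The log2 differences were then 4.94 for miR-34c-5p (adjusted p = 8.0e-08 by limma), 4.31 for miR-34b-3p (adjusted p = 3.5e-07 by limma), 4.24 for miR-34c-3p (adjusted p = 3.3e-06 by limma), 4.71 for miR-34b-5p (adjusted p = 0.00488 by limma) and 1.82 for miR-449a-5p (adjusted p = 0.0112 by limma). In this fit miR-34b-5p was at 0 in the FA libraries and was tested only through the O3 libraries. Its call and the count of 5 are therefore no support by themselves. When each of the 5 other KO male libraries was left out instead, 0 members were called. In KO females and KO males the log2 differences of the tested members stayed above 0 in 52 of 52 and 65 of 65 alternative fits, respectively. These fits share their libraries. The filter was passed only through the O3 libraries by miR-34c-3p and miR-449a-5p in KO females and by miR-34b-5p in KO males. These counts are therefore no support by themselves.

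In co-ex females, 0 of 5 members passed the threshold, against 0.369% of all tested miRNAs (1 of 271, lower after O3, with 16 at an unadjusted p under 0.05). By edgeR 1 miRNA was called, also lower after O3, and by DESeq2 1 was called, higher after O3. miR-34b-3p had 2079, 1394, 1441 and 2452 normalized units after FA and 2264, 1335, 2339 and 1327 after O3. The groups overlapped over their whole range, with a log2 difference of -0.03 (SE 0.39, adjusted p = 0.976 by limma).

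miR-34c-5p was the member of the co-ex females with the smallest p. It had 348, 425, 289.9 and 1008 normalized units after FA and 1042, 578, 1105 and 1060.0 after O3. O3 replicates 1, 3 and 4 were above all FA libraries, and O3 replicate 2 was below FA replicate 4. The log2 difference was 1.00 (SE 0.44, unadjusted p = 0.0405, adjusted p = 0.778 by limma).

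The remaining members of the co-ex females also overlapped between exposures. miR-34c-3p had 258, 297, 76.8 and 202 normalized units after FA and 169, 138, 154 and 63.1 after O3, a log2 difference of -0.59 (SE 0.53). miR-449a-5p had 38.1, 13.1, 47.1 and 31.1 after FA and 137, 40.4, 31.9 and 139 after O3, a log2 difference of 1.24 (SE 0.70). Their adjusted p were 0.891 and 0.778 by limma. miR-34b-5p was at 0 in FA replicates 1 and 3 and in O3 replicate 1, and at 6.57 to 24.1 in the others.

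In co-ex males, 0 of 4 members tested passed the threshold by limma, against 0% of all tested miRNAs (0 of 312, with 11 at an unadjusted p under 0.05, and 0 by edgeR and by DESeq2). miR-34b-3p had 361, 197, 329.7 and 1999.5 normalized units after FA and 210.3, 4384, 244 and 896 after O3. miR-34c-5p followed the same libraries, with 51.7, 59.0, 40.9 and 439.9 after FA and 43.0, 2259, 49.0 and 315 after O3. In both, FA replicate 4 and O3 replicate 2 were the highest, and these were also the libraries highest in the epithelial miRNAs.

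miR-34c-3p was at 87.0, 95.2, 104 and 213 normalized units after FA and 30.2, 1545, 41.1 and 202 after O3 in co-ex males. miR-449a-5p was at 7.05, 7.47, 27.2 and 30.7 after FA and 10.97, 68.4, 10.8 and 12.1 after O3. The log2 differences of the 4 members were between 0.27 and 1.19 with SEs of 0.83 to 1.18. Without O3 replicate 2 they were -0.38 for miR-34b-3p, -0.87 for miR-34c-3p, -0.35 for miR-449a-5p and 0.02 for miR-34c-5p. Without FA replicate 4 they were 1.23 for miR-34b-3p, 0.57 for miR-34c-3p, 0.61 for miR-449a-5p and 1.97 for miR-34c-5p, and 0 members were called by limma without either library.

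**Figure D2:**
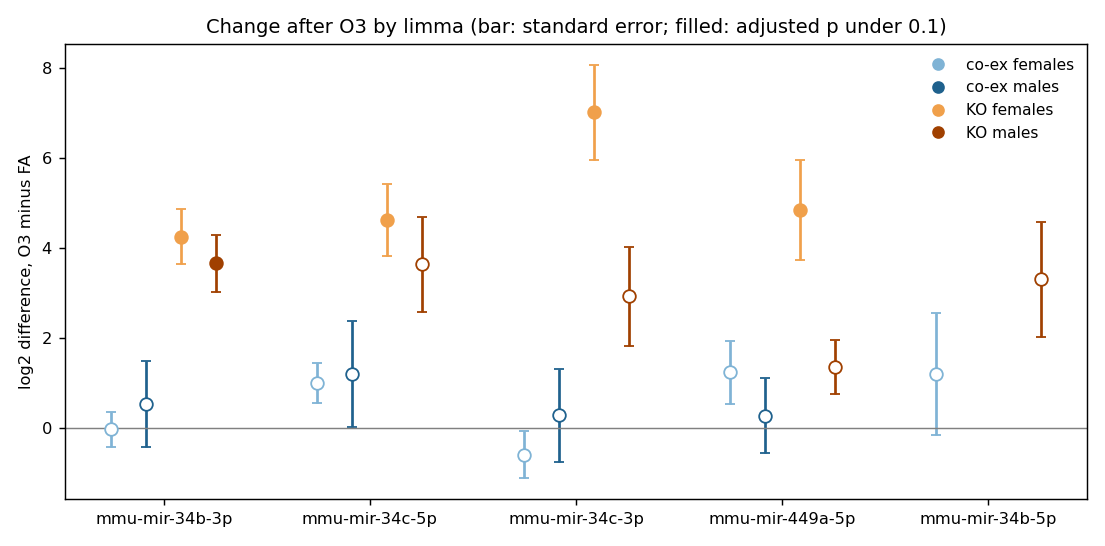
log2 difference between O3 and FA by limma for each miRNA (horizontal axis) in the 4 tables (colours), with the standard error as a bar and filled points for an adjusted p under 0.1. The KO females lie highest for the 4 members tested there, from 4.25 to 7.004, and the co-ex points lie between -0.59 and 1.24.

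The second question was whether the response to O3 differed with genotype and with sex. Each change was taken within its own table, and limma tested the difference between the changes. In females, the change in co-ex was smaller than in KO for 4 of the 5 members, while 8.71% of all tested miRNAs were called (21 of 241, of which 20 were smaller in co-ex). miR-34b-5p was not tested. The difference of the changes on the log2 scale was -7.60 for miR-34c-3p (SE 1.09, adjusted p = 0.000825 by limma), -4.28 for miR-34b-3p (SE 0.70, adjusted p = 0.00160 by limma), -3.61 for miR-34c-5p (SE 0.91, adjusted p = 0.0289 by limma) and -3.61 for miR-449a-5p (SE 1.19, adjusted p = 0.0942 by limma). By p-value miR-34c-3p ranked first and miR-34b-3p second of the 241. In KO females miR-34c-3p and miR-449a-5p passed the filter only through the O3 libraries, where they are high. A count over the tested members and the rank of miR-34c-3p are therefore no support by themselves. The sizes for miR-34c-3p and miR-449a-5p are poorly fixed. The median difference of all tested miRNAs was -0.48. The call of miR-449a-5p was lost with no filter (adjusted p = 0.114 by limma), with a pseudocount of 0.1 (adjusted p = 0.107 by limma) and in 8 of the 14 fits that left out 1 library, and over 20 alternatives its adjusted p ran from 0.0518 to 0.231, whereas that of miR-34c-5p reached at most 0.0815.

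In males, 0 of 4 members differed between genotypes in their change by limma, against 0% of all tested miRNAs (0 of 305, with 6 at an unadjusted p under 0.05, and 0 by edgeR). The differences had the same sign as in females, from -3.13 for miR-34b-3p (SE 1.40, unadjusted p = 0.0417, adjusted p = 0.949 by limma) to -1.08 for miR-449a-5p (SE 1.08). The libraries that stood apart enter on both sides, and 0 members were called by limma without each of them. The difference for miR-34b-3p was -2.43 without co-ex FA replicate 4, -4.03 without co-ex O3 replicate 2 and -3.78 without KO FA replicate 3.

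Between the sexes, 0 of 4 members differed in their change, against 0% of all tested miRNAs in co-ex mice (0 of 249 by limma, with 8 at an unadjusted p under 0.05, and 1 by edgeR) and 0% in KO mice (0 of 309 by limma, with 17 at an unadjusted p under 0.05, and 0 by edgeR). In KO mice miR-449a-5p had the largest ratio to its error, with a change smaller in males by a log2 difference of -3.49 (SE 1.12, unadjusted p = 0.00916, adjusted p = 0.758 by limma). The count was 0 by limma as well without co-ex male FA replicate 4, co-ex male O3 replicate 2 or KO male FA replicate 3.

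The third question was how the level itself differed between genotypes and sexes under the same exposure. Recovered reads were tested with edgeR (quasi-likelihood, TMM scaling). The library codes of co-ex and KO mice ran in separate ranges, as did those of co-ex males and females. Within KO mice, FA replicates 2 and 3 of females and FA replicate 3 of males had codes above those of all other KO libraries. A difference between series of libraries therefore cannot be told apart from one of genotype, or of sex in co-ex mice. In KO mice it cannot be told apart in full from one of exposure. The differences of changes compare the same series and share this limit. Depth differed too, with 93520 to 488993 reads in co-ex females after FA and 744541 to 1002869 in KO females after FA. After FA, co-ex females had more of 4 of the 5 members than KO females, while 28.3% of all tested miRNAs were called (81 of 286, of which 54 were higher in co-ex). miR-34b-5p was not tested. The log2 differences were 6.71 for miR-34c-3p (adjusted p = 0.00245 by edgeR), 5.89 for miR-449a-5p (adjusted p = 0.0121 by edgeR), 4.47 for miR-34c-5p (adjusted p = 0.00325 by edgeR) and 4.05 for miR-34b-3p (adjusted p = 0.000948 by edgeR). The groups were far apart, since miR-34b-3p was at 8241 to 17332 RPM in co-ex females and at 156 to 916 RPM in KO females. In KO females after FA miR-34c-3p had 1, 1 and 21 reads and miR-449a-5p 3, 3 and 0 reads, so both were tested only through the co-ex libraries where they are high, the sizes of their differences are poorly fixed, and a count over the tested members is no support by itself. In RPM, miR-34c-3p was at 470.5 to 1755 in co-ex females and at 0.997 to 28.2 in KO females, and miR-449a-5p at 77.7 to 289 and at 0 to 3.69. With no filter on low values 5 members were called (with 89 of 318 miRNAs in all), and in the other alternatives 4. The KO female FA libraries enter this comparison, the comparison of O3 with FA and the difference of changes, so these results are not independent of each other.

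After O3, 1 of 5 members differed between co-ex and KO females, against 12.6% of all tested miRNAs called (33 of 262, of which 18 were higher in co-ex, and 19 of 29 with total-count scaling). It was miR-34c-5p, higher in co-ex with a log2 difference of 1.26 (adjusted p = 0.0971 by edgeR), and the call was lost whichever of the 7 libraries was left out (adjusted p of 0.117 to 0.316 by edgeR). miR-34b-3p was at 8243 to 15918 RPM in co-ex females and at 7201 to 15016 RPM in KO females after O3, with overlapping ranges and a log2 difference of 0.12 (adjusted p = 0.902 by edgeR). Thus in females the genotypes were apart after FA and overlapped after O3 for this miRNA.

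In males, 0 of 4 members differed between co-ex and KO after FA, against 3.87% of all tested miRNAs called (13 of 336, of which 8 were higher in co-ex, and 12 of 15 with total-count scaling), and 0 of 5 after O3, against 17.1% (54 of 315, of which 28 were higher in co-ex, and 50 of 69 with total-count scaling). By DESeq2 the members called were 0 in both as well. Without KO FA replicate 3, miR-34c-3p was higher in co-ex males after FA (log2 difference 3.48, adjusted p = 0.0360 by edgeR), with 33 of 332 tested miRNAs called in all. Without co-ex FA replicate 4, edgeR called 0 members and 0 of 323 miRNAs (44 had an unadjusted p under 0.05). Without co-ex O3 replicate 2, 3 members were lower in co-ex males after O3, namely miR-34b-3p (-2.32, adjusted p = 0.0162 by edgeR), miR-34c-5p (-2.76, adjusted p = 0.0257 by edgeR) and miR-449a-5p (-2.55, adjusted p = 0.00917 by edgeR). In that fit 111 of 314 tested miRNAs were called in all, so the members' calls stood among many others.

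Between the sexes, co-ex males had less of 2 of the 4 members tested than co-ex females after FA, against 13.8% of all tested miRNAs called (36 of 260, of which 9 were higher in males, and 2 of 23 with total-count scaling). These were miR-34b-3p (log2 difference -2.21, adjusted p = 0.0646 by edgeR) and miR-34c-5p (-2.67, adjusted p = 0.0547 by edgeR), and with total-count scaling neither passed (adjusted p of 0.112 and 0.108 by edgeR). Both calls were lost without co-ex female FA replicate 1 or 4 or co-ex male FA replicate 1, 2 or 3, and the call of miR-34b-3p also without co-ex female FA replicate 3. Without co-ex male FA replicate 4, 3 members were called among 40 of 277 miRNAs, with log2 differences of -3.30 for miR-34b-3p, -3.99 for miR-34c-5p (adjusted p = 0.00446 by edgeR for each) and -1.83 for miR-34c-3p (adjusted p = 0.0888 by edgeR). After O3, 1 of 4 members was lower in co-ex males, against 7.23% of all tested miRNAs called (18 of 249), and it was miR-449a-5p (-2.97, adjusted p = 0.0822 by edgeR). Its call was lost on leaving out any of 6 libraries (adjusted p of 0.137 to 0.172 by edgeR), and without co-ex male O3 replicate 2 the call of miR-449a-5p held and miR-34b-3p (-3.15) and miR-34c-5p (-3.95) were called too (adjusted p = 0.0133 by edgeR for each), among 68 of 262 tested miRNAs called in all.

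Between KO males and KO females 0 members passed the threshold by edgeR, with 0% of all tested miRNAs called after FA (0 of 299 by edgeR, with 21 at an unadjusted p under 0.05, and 13 by DESeq2, of which 1 was a member) and 0% after O3 (0 of 311 by edgeR, with 27 at an unadjusted p under 0.05, and 5 by DESeq2, of which 0 were members). The largest log2 difference was 4.64 for miR-449a-5p after FA (unadjusted p = 0.0149, adjusted p = 0.491 by edgeR), which was at 35.1, 43.1 and 96.8 RPM in KO males and at 2.99, 3.69 and 0 RPM in KO females.

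The arms of a hairpin were compared within a library, as the percent of the hairpin's recovered reads on the 5p arm, for hairpins with at least 10 reads. The miR-34b hairpin gave almost all of its reads from the 3p arm. Its 5p share was 0% to 2.42% in the 28 libraries, from 124 to 10896 reads on the hairpin, and 0% in the 3 KO female FA libraries, in which 0 of 156, 0 of 455 and 0 of 682 reads were on the 5p arm. The mean share differed between O3 and FA by -0.31 to 0.57 percentage points in the 4 tables, and none of the 4 differences passed an exact two-sided permutation test (p = 0.1 to 1, where the smallest p is 0.0286 with 4 libraries against 4 and 0.1 with 3 against 3).

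The miR-34c hairpin gave reads from both arms. In co-ex females the 5p share was 57.5%, 58.9%, 79.0% and 83.3% after FA and 86.0%, 80.8%, 87.7% and 94.4% after O3, a mean of 69.7% ± 13.4 (SD, n = 4) against 87.2% ± 5.61 (SD, n = 4) (exact two-sided permutation test, p = 0.0571, adjusted over 8 tests p = 0.2). In co-ex males it was 37.3%, 38.3%, 28.3% and 67.3% after FA and 58.8%, 59.4%, 54.4% and 61.0% after O3, a mean of 42.8% ± 16.96 (SD, n = 4) against 58.4% ± 2.82 (SD, n = 4) (exact permutation test, p = 0.143). The FA and O3 libraries overlapped in both. Without FA replicate 4 the difference in co-ex males went from 15.6 to 23.8 percentage points, with no overlap (exact permutation test, p = 0.0571, the smallest that 3 libraries against 4 can give).

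In the KO tables the 5p share of miR-34c was lower after O3 in one sex and higher in the other. In KO females the 5p share was 94.7%, 99.2% and 84.9% after FA and 70.8%, 63.7% and 78.0% after O3, a mean of 93.0% ± 7.34 (SD, n = 3) against 70.8% ± 7.15 (SD, n = 3). In KO males it was 70.5%, 75.4% and 71.5% after FA and 81.3%, 79.7% and 82.2% after O3, a mean of 72.5% ± 2.56 (SD, n = 3) against 81.1% ± 1.28 (SD, n = 3). The groups did not overlap in either, and p was 0.1 in both, the smallest an exact permutation test can give with 3 libraries a group. The KO female FA values rest on 19, 133 and 139 reads, and their exact 95% binomial intervals reach down to 74.0% for replicate 1.

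**Figure D3:**
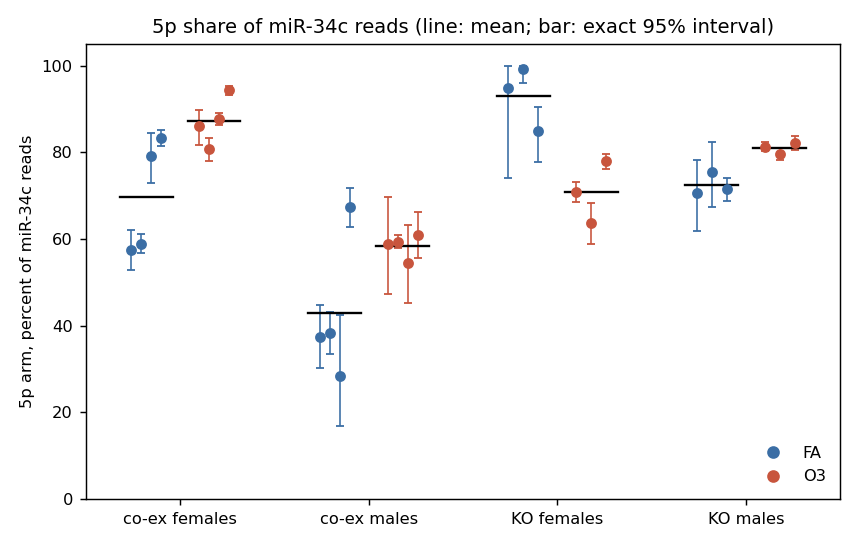
5p arm as a percent of the reads of the miR-34c hairpin (vertical axis) in each library of the 4 tables, FA in blue and O3 in red, with exact 95% binomial intervals as bars and the group mean as a line. In KO females the O3 libraries lie below the FA libraries and in KO males above them, and in the co-ex tables the exposures overlap.

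The ratio between members was highest in the KO female FA libraries. miR-34b-3p was 32.5, 156 and 455 times as abundant as miR-34c-3p there (lowest, median and highest), where the median and the highest divide by 1 read of miR-34c-3p and are poorly fixed, and 9.57 to 11.3 times in the KO female O3 libraries. In the 6 other groups this ratio was between 2.07 and 21.0. miR-34c-5p was 0.115 to 0.986 times as abundant as miR-34b-3p over the 28 libraries.

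Of the relatives that share the seed of the 5p members, 0 passed the threshold in any O3 comparison by limma. Of all tested miRNAs 0% to 13.2% were called in these comparisons. miR-34a-5p, the form known as a p53 target in many tissues, was listed in all 4 tables. Its log2 difference between O3 and FA was 0.06 in co-ex females (SE 0.62), 0.26 in co-ex males (SE 0.46), -0.49 in KO females (SE 0.38) and 0.66 in KO males (SE 1.02). In KO females, where 4 members rose, it had 423, 326 and 293 normalized units after FA and 229, 202 and 316 after O3. In KO males after FA it was at 878, 857 and 59.1 RPM, so that FA replicate 3 was the lowest in miR-34a-5p and the highest of its group in all 5 members.

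miR-449c-5p and miR-449b come from the same Cdc20b intron region as miR-449a and were listed in the table of KO females. miR-449c-5p had 13.5, 0 and 0 normalized units after FA and 2.55, 25.8 and 5.40 after O3, with a log2 difference of 1.80 (SE 1.49, adjusted p = 0.542 by limma). miR-449b had 24 reads in FA replicate 3 and 0 in the other FA libraries, and 4, 0 and 1 reads after O3. miR-449a-3p and miR-449c-3p were listed in none of the 4 tables.

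A list of 10 miRNAs known as p53 targets or as processed with its help was set beside the members. It held miR-34a-5p, miR-34a-3p, miR-192-5p, miR-194-5p, miR-215-5p, miR-143-3p, miR-145a-5p, miR-107-3p, miR-15a-5p and miR-16-5p. Of these, 0 of 8 to 9 tested passed the threshold in each of the 4 comparisons of O3 with FA. Their median log2 difference was 0.13 in co-ex females, 0.14 in co-ex males, -0.39 in KO females and 0.11 in KO males, beside medians of -0.16, 0.18, 0.06 and -0.04 of all tested miRNAs. The list was mixed in KO females. The ratio of means, O3 to FA, was 4.40 for miR-143-3p, with every O3 library above every FA library. For miR-145a-5p it was 2.89, and for the others 0.271 to 0.906.

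Epithelial miRNAs were high in the libraries that were high in the members. In bulk samples, fewer cells of a type and less RNA per cell cannot be told apart. In KO females the 11 epithelial miRNAs had 1660 to 4834 RPM after FA and 20830 to 37198 RPM after O3 in sum, and 7 of 11 tested rose, with a median log2 difference of 3.53. Of all tested miRNAs 13.2% were called there (42 of 319, of which 32 were higher). miR-375-3p rose by a log2 difference of 4.17 (SE 0.65, adjusted p = 0.00523 by limma) and miR-200a-3p by 3.62 (SE 0.49, adjusted p = 0.00523 by limma). In KO males the sum was at 2478, 3017 and 30676 RPM after FA and at 21147 to 27064 RPM after O3, and 0 of 11 passed, with a median log2 difference of 1.69. Of all tested miRNAs 0.909% were called there (4 of 440).

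In the co-ex tables the epithelial sum ran from 11687 to 26997 RPM after FA and from 19956 to 43685 RPM after O3 in females, and from 5156 to 29301 RPM and 4016 to 35159 RPM in males, and 0 of 10 tested passed in either. Of all tested miRNAs 1 of 271 was called in co-ex females and 0 of 312 in co-ex males. The mesenchymal and vessel list had 0 of 5 called in KO females, at 159 to 861 RPM after FA and 1008 to 5656 RPM after O3, and the red cell list had 0 of 2 and the myeloid list 0 of 6. The share of all tested miRNAs called there was 13.2%. The median log2 difference in KO females was 2.19 for the mesenchymal and vessel list, -0.84 for the red cell list and -0.38 for the myeloid list. That of all tested miRNAs was 0.06, so a median above it was not particular to the epithelial list. In KO males the mesenchymal and vessel list had a median log2 difference of 0.31, beside 1.69 for the epithelial list. The lists were not tested against each other. Of the 11 epithelial miRNAs, 0 were at 0 in all 3 KO female O3 libraries. The part of epithelial RNA in the results on the members was not tested.

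**Figure D4:**
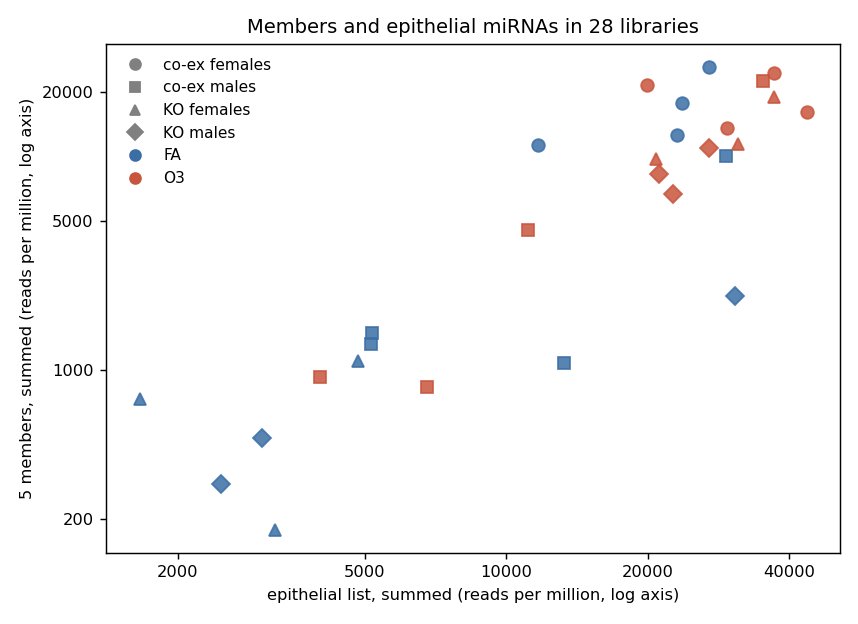
Summed level of the 5 members (vertical axis) against that of the epithelial list (horizontal axis), both in RPM on log axes, for 28 libraries with FA in blue, O3 in red and a symbol for each table. The KO FA libraries lie at the lower left, apart from KO male FA replicate 3 at 30676 and 2209 RPM, and the co-ex females lie at the upper right.

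Across the 28 libraries the summed member level on the log2(RPM + 1) scale followed that of the epithelial list listed in all tables with Pearson's r = 0.89 (Spearman's rho = 0.82), and with r = 0.88 after each table was centred on its mean. The points share library and depth, and the correlation is a description. KO male FA replicate 3 departed from it, with an epithelial sum above those of the KO male O3 libraries and a member sum of 2209 RPM below them (6681 to 10975 RPM).

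Of the 297 other miRNAs listed in all tables with a mean of at least 10 RPM, the most alike in pattern to the summed members was miR-92b-3p (r = 0.96 over 28 libraries). It was followed by miR-375-3p (r = 0.92) and miR-429-3p (r = 0.92), both of the epithelial list, and by miR-1961 (r = 0.90) and miR-714 (r = 0.86). With each table centred on its mean the first 5 were miR-92b-3p (r = 0.96), miR-429-3p (r = 0.91), miR-375-3p (r = 0.90), miR-3473e (r = 0.87) and miR-200b-5p (r = 0.86).

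Among the members themselves, miR-34b-3p and miR-34c-5p were most alike over the 28 libraries (r = 0.96), followed by miR-34b-3p and miR-34c-3p (r = 0.85) and by both arms of miR-34c (r = 0.83). miR-449a-5p, from another chromosome, had r between 0.75 and 0.80 with these 3. The pairs with miR-34b-5p were the least alike, with r of 0.52 to 0.65, and this member had 0 reads in 12 of the 28 libraries.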

How the data were processed

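The data were 28 small RNA libraries of AM in 8 groups (genotype, sex and exposure). According to the study's methods, reads were trimmed with the FASTX-Toolkit and aligned and counted with Chimira, and the authors' own calls came from edgeR and TCC. The deposited library columns hold a normalized signal, reads divided by a size factor, each table on its own, and reads were recovered as whole multiples of the smallest step (tolerance 0.01) for 100% of values. The log2 fold changes, p-values and rank score deposited per miRNA were not used. Genome build and annotation of the alignment are not given in the sources used here.

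O3 and FA were compared with limma 3.58.1 (R 4.3.3, trended prior) on log2(value + 1), a minimum value of 5 in a number of libraries equal to the size of the smaller group, Benjamini-Hochberg adjustment over all tested miRNAs and a threshold of 0.1, the study's own. Differences of changes used the same fit. Genotypes and sexes were compared with edgeR 4.0.16 (quasi-likelihood, TMM) on recovered reads of miRNAs listed in both tables. DESeq2 1.42.0 was an alternative, as were total-count scaling, no filter, a pseudocount of 0.1, a threshold of 0.05, a replicate block and each library left out. Arm shares were compared by exact permutation over libraries with scipy 1.17.1 (hairpins of at least 10 reads, with 1 and 50 as alternatives), and fits were tested on simulated data. Sequences came from RefSeq and gene positions from RefSeq and GENCODE. Named were the members, their relatives, the 5 miRNAs most alike in pattern, and the lists. Members and lists were chosen with earlier results of these data known. The depth, 41542 to 2082034 reads a library, limits miR-34b-5p and miR-449a-5p most. Each of the 36 pairs of replicates differed beyond sampling noise.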

Additional observations from a re-analysis of the deposited data

Results flagged for a closer look

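Of 28 sets of 4 libraries (5 members and 2 arm shares, in 4 co-ex groups), 10 held a library whose gap to the nearest other was over 0.829 of the range. For independent and normally distributed values this limit flags about 1 in 20. The values were not put on a log scale and the sets share libraries, so that rate does not hold here. In co-ex males after FA the flagged libraries were replicate 4 for miR-34b-3p (1999.5 normalized units), miR-34c-3p (213) and miR-34c-5p (439.9), and replicate 3 for miR-34b-5p (8.17) and for the 5p share of miR-34b (2.42%), both from 3 reads on the 5p arm. In co-ex males after O3 they were replicate 2 for miR-34b-3p (4384), miR-34c-3p (1545), miR-34c-5p (2259) and miR-449a-5p (68.4). In co-ex females after O3, replicate 2 was low for miR-34c-5p (578).

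The response to O3 differed between co-ex and KO females for 4 members by limma, while 8.71% of all tested miRNAs were called (21 of 241), with differences of the log2 changes of -7.60 for miR-34c-3p, -4.28 for miR-34b-3p, -3.61 for miR-34c-5p and -3.61 for miR-449a-5p. The call of miR-449a-5p was lost in 8 of 14 fits without 1 library, with no filter, with a pseudocount of 0.1 and with the replicate block. In KO females miR-34c-3p and miR-449a-5p were tested only through the O3 libraries, so the count is no support by itself.

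The mean 5p share of miR-34c after O3 minus that after FA was -22.1 percentage points in KO females and 8.62 in KO males, with no overlap between exposures in either sex. The difference between the sexes was not tested.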

How the results depend on the processing

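The count of 4 members called higher in co-ex than in KO females after FA became 5 with no filter and was the same in the other alternatives. In KO males 0 members were called instead of 1 with edgeR's quasi-likelihood test, with a threshold of 0.05 and with the replicate number as a block, and 0 to 5 as each library was left out. Between co-ex and KO females after O3 the count of 1 became 2 with DESeq2, and 0 with no filter, a threshold of 0.05, the replicate block or any library left out. Between co-ex males and females after FA the count of 2 became 4 with DESeq2, 0 with total-count scaling or a threshold of 0.05, and 0 to 3 as libraries were left out. After O3 the count of 1 became 0 with a threshold of 0.05 and 0 to 3 as libraries were left out. Between co-ex and KO males, leaving out libraries gave 0 to 1 after FA and 0 to 3 after O3, and between KO males and females after FA DESeq2 called 1. The cause of these changes was not tested.

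With a replicate block, sign changes were seen between co-ex and KO for miR-34b-5p in females after O3 (-0.22), miR-34c-5p in males after FA (-0.14) and miR-34c-3p in males after O3 (-0.99), and between co-ex males and females after O3 for miR-34c-3p (-0.95). DESeq2 turned miR-34c-5p between co-ex and KO males after FA (-0.033) and miR-34b-3p between KO males and females after FA (0.094), and total-count scaling miR-34c-5p between KO males and females after O3 (-0.0052). None of these differences passed the threshold, with or without the alternative. The replicate numbers did not pair the libraries. The deviations of 14 same-numbered FA and O3 pairs correlated at -0.276 to 0.233, 3 of them above 0.1, 0 tables had all pairs above 0.1, and 6 FA libraries were most alike to their own number. The block left 4 members called in KO females and 3 in the difference of changes of females, where miR-449a-5p was lost (adjusted p = 0.164 by limma).

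Log2 differences that changed sign as single libraries were left out ranged as follows. For O3 against FA they ran from -0.17 to 0.12 for miR-34b-3p in co-ex females. The co-ex males had ranges from -0.38 to 1.23 for miR-34b-3p, from -0.87 to 1.01 for miR-34c-3p and from -0.35 to 0.61 for miR-449a-5p. For the change of males minus that of females they ran from -0.98 to 0.96 for miR-34c-5p, from -0.34 to 1.26 for miR-34b-3p and from -0.27 to 1.60 for miR-34c-3p in co-ex, and from -1.18 to 0.13 for miR-34b-3p and from -1.70 to 0.32 for miR-34c-5p in KO. For co-ex against KO they ran from -0.075 to 0.46 for miR-34b-3p in females after O3, from -1.48 to 2.30 for miR-34c-5p in males after FA and from -1.26 to 1.298 for miR-34c-3p in males after O3. For males against females they ran from -1.68 to 1.03 for miR-34c-3p in co-ex after O3, from -0.89 to 0.42 for miR-34b-3p and from -0.71 to 2.20 for miR-34c-5p in KO after FA, and from -0.013 to 0.39 for miR-34c-5p in KO after O3. The 5p share of miR-34b changed by -0.588 to 0.274 percentage points in co-ex males and by -0.295 to 0.388 in KO males.

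Counts of all miRNAs called moved by over 1.5 times in KO males (4 with all libraries, 15 with DESeq2, 2 with edgeR, 86 without FA replicate 3), in KO females without O3 replicate 3 (42 to 25) and in the difference of changes of females (21, against 12 with a threshold of 0.05 and 9 without co-ex FA replicate 4). Between co-ex and KO, DESeq2 called 62 instead of 33 in females after O3, 70 instead of 13 in males after FA and 102 instead of 54 in males after O3, and a threshold of 0.05 left 6, 4 and 33. Between co-ex males and females DESeq2 called 58 instead of 36 after FA and 59 instead of 18 after O3, and a threshold of 0.05 left 16 and 1. As libraries were left out, these counts ran from 10 on leaving out female replicate 1 to 75 on leaving out female replicate 2 (40 of them higher in males, against 9 of 36) after FA, and from 0 (without female replicate 2 or 4) to 68 (without male replicate 2) after O3. Between co-ex and KO they ran from 6 (without co-ex replicate 4) to 33 in females after O3, from 0 (without co-ex replicate 4) to 33 (without KO replicate 3) in males after FA, and from 20 (without KO replicate 1) to 111 (without co-ex replicate 2) in males after O3. The block called 0 of all miRNAs between co-ex and KO males after FA and 46 between co-ex males and females after O3. Total-count scaling moved the median log2 difference of all tested miRNAs from 0.06 to 0.27 in KO females and from -0.04 to 0.20 in KO males for O3 against FA, and from 0.06 to 0.48 between co-ex and KO females after FA. DESeq2 was not run for differences of changes. Low reads limited miR-34b-5p and miR-449a-5p most.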
